A study of Mus musculus with 6 samples.

Results

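The members of 7 amino acid transporter families were followed in epididymal white fat of mice given CL-316,243, a drug that acts on the beta3-adrenergic receptor of fat cells. Membership was read from the gene symbols of the array platform, which had to start with Slc1a, Slc3a, Slc6a, Slc7a, Slc36a, Slc38a or Slc43a. This rule took 50 of the array's 19200 probes and 48 of its 13409 named genes. Of these genes 3 are opposite strand transcripts (Slc6a19os, Slc7a6os and Slc36a1os), which carry the family name without being transporters.

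The agonist animals were 12-week-old male C57BL/6J mice injected with the beta3-adrenergic agonist CL-316,243 at 1 mg per kg (the labels write the drug's number in another way once), and their controls were mice of the same strain, sex and age injected with saline; fat was taken after 3 hours. RNA of 6 animals was combined into 1 pool per treatment. Both pools went onto each of 6 arrays, with the CL-316,243 pool in channel 2 on arrays 4, 5 and 6 and in channel 1 on arrays 1, 2 and 3. The arrays therefore repeat 1 pair of pools, and every p-value below covers the spread between arrays, not between mice.

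Amino acids cross the cell membrane through carriers that differ in what they move and in what drives them. Slc1a carriers use the sodium gradient to take up glutamate, aspartate or small neutral amino acids, and Slc38a carriers (systems A and N) take up glutamine and alanine. Slc7a proteins either move cationic amino acids on their own or act as light chains that reach the membrane only when bound to a heavy chain, Slc3a1 or Slc3a2. Slc36a and Slc43a carriers move small or branched-chain amino acids, and Slc6a carriers serve neurotransmitters, creatine, taurine and amino acids. Several of these genes, Slc7a11, Slc38a2, Slc7a5 and Slc3a2 among them, are known targets of ATF4, the transcription factor that answers amino acid shortage.

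Each deposited value is a log ratio of both channels of an array, read here as log2. The labels do not say which pool is the numerator. A gene is therefore called higher or lower for the numerator pool, and all directions turn if that is the saline pool. Signs were used as deposited on all 6 arrays, and no label says that the same pool is on top in both dye orientations. Rank correlations between arrays of opposite orientation were 0.01 to 0.19 over all genes. They do not settle this, since each column was placed on probe numbers, as described next, with the help of the other arrays. With the sign of arrays 1 to 3 turned, no transporter gene was called. Dio2, a deiodinase gene induced by beta-adrenergic signals in fat, had a positive ratio on 6 of 6 arrays (1.18 ± 0.19 SE). As 1 gene picked from many, it does not settle which pool is the numerator. If the values were natural logs, each would be 1.44 times larger on the log2 scale. Rows did not correspond between the columns as deposited, so each column was first placed on probe numbers. This gave 46, 28, 45, 45, 47 and 48 of the 48 genes a value on arrays 1 to 6. Array 2 had lost the most spots, and most members that lack a value lack it there. No intensities were used, so neither the level of a gene in fat nor the presence of fat cell markers could be checked, and less RNA per cell cannot be told apart from fewer cells of a type.

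Of the 48 genes 44 had the 2 values per dye orientation that the test asked for, and 27 of them had all 6. Only Slc1a3, which encodes the glutamate and aspartate carrier GLAST, passed limma at an adjusted p under 0.05, and it was lower. That is 2.27% of the members tested, against 3.22% of all 12870 genes tested (1.25% lower and 1.97% higher). The size rule, which asks for a ratio of 1.5-fold or more and for 1 sign on all arrays measured, also took Slc1a3 alone (2.27%, against 3.31% of all genes). At an unadjusted p under 0.05 there were 4 members (9.09%, against 18.5% of all genes), namely Slc1a3, Slc7a8, Slc43a1 and Slc36a1.

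The ratios of the transporters lay close to 0. Their median was 0.04, against -0.01 for all genes tested. Ratios smaller than 0.25 in size were found for 37 of the 44 members (84.1%), against 73.1% of all genes, and the SD of the ratios was 0.24 over members and 0.31 over all genes. The fitted ratio was positive in 26 members (59.1%, against 47.7% of all genes) and negative in 18. For 42 of the 44 the 95% interval of the ratio stayed within 2-fold in either direction, and for 36 within 1.5-fold. The exceptions to the 2-fold bound were Slc1a3 and Slc43a1. The share of all genes within these bounds was not counted. The intervals cover the spread between arrays of 1 pair of pools, not errors in placing a probe or in its gene name.

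**Figure D1:**
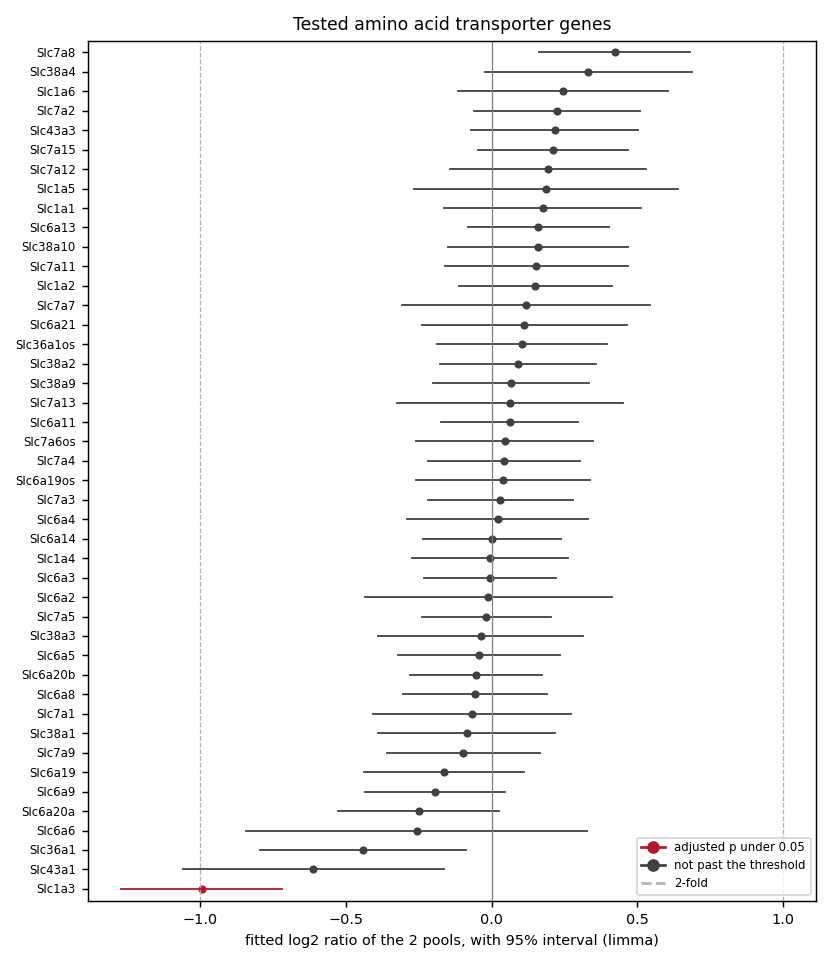
Fitted log2 ratio of the 2 pools with its 95% limma interval (horizontal lines) for the 44 tested amino acid transporter genes, sorted by ratio; dashed lines mark 2-fold. Slc1a3 at -0.99 is the 1 gene past the threshold (red), and the intervals of 42 genes lie between the dashed lines.

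The Slc1a family held the only called member. Slc1a3 had log2 ratios of -1.06, -1.39 and -0.99 on the arrays with the CL-316,243 pool in channel 2 and of -0.77 and -0.91 on arrays 1 and 3; array 2 gave it no placed value. All 5 arrays were thus negative in both orientations, without an array near 0. The fitted ratio was -0.99 ± 0.12 (SE, n = 5 arrays), a 1.99-fold difference with a limma adjusted p = 0.00438 and a 95% interval from -1.27 to -0.72. It was as large when the transporter probes' own values were hidden from the placement (-0.99, limma adjusted p = 0.00428). Without array 2, 4, 5 or 6 in turn the adjusted p lay between 0.00329 and 0.0286. Without array 1 or array 3 the gene had too few values to be tested. With 1 value per orientation enough, a setting added after the data were seen, it was 0.0326 without array 1 and 0.0199 without array 3. It rests on 1 probe, and over 969 pairs of probes of the same gene mean ratios correlated at only 0.09. The adjusted p was 0.0106 on the arrays with the agonist pool in channel 2 alone and 0.185 on the 2 arrays of the other orientation that measured it.

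Transcripts of the seminal vesicle, a gland that lies against the epididymal fat pad, moved in the same direction as Slc1a3. All 5 of the 5 tested seminal vesicle markers (Svs2, Svs4, Svs5, Svs6 and Pate4) were lower by limma, with ratios from -5.47 to -1.16. Their part in the ratio of Slc1a3 was not tested. No marker passed of the 3 tested for epididymis (ratios from -0.11 to 0.13), the 4 for macrophages (-0.13 to 0.40), the 4 for nerve (-0.41 to 0.08), the 4 for endothelium (-0.51 to 0.12), the 4 for epithelium (-0.35 to 0.66) or the 7 for fat cells (-0.47 to 1.17). At an unadjusted p under 0.05, against 18.5% of all genes, stood 5 of the 7 fat cell markers, among them Cidec (1.17), Lpl (0.87) and Pparg (-0.47). So did 3 of the 4 epithelium markers, in both directions: Krt18 (0.66), Cdh1 (0.48) and Krt8 (-0.35). The count was 1 of the 4 for nerve, 1 of the 4 for endothelium and none for macrophages or epididymis.

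The 250 bases before the annotated start of Slc1a3 are printed here because it is the member that passed the test. They are taken from RefSeq on GRCm38.p6 (chr15:8710808-8711057, minus strand, written 5′ to 3′).
Slc1a3: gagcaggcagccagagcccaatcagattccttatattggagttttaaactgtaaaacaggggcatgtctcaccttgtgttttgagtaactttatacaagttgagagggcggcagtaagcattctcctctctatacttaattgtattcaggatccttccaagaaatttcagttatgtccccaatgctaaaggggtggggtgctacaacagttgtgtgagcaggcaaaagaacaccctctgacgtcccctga
This window was searched on both strands for TGATGNAA, the core of the amino acid response element, and for TGACGTCA, the cAMP response element. It holds neither run of letters. The search took exact matches only, and tgacgtcc near the end of the window differs from TGACGTCA in its last letter.

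The 5 other Slc1a genes did not pass. Slc1a5, the glutamine carrier ASCT2, had ratios of 1.09, -0.10 and -0.22 on arrays 4, 5 and 6 and of -0.09 and 0.32 on arrays 1 and 3. Array 4 stood apart: the fitted ratio was 0.19 ± 0.20 (SE, n = 5 arrays, limma adjusted p = 0.677), and -0.02 without that array. Slc1a4, the related carrier ASCT1, was at -0.0048. The glutamate carriers Slc1a1 (EAAT3), Slc1a2 (GLT-1) and Slc1a6 (EAAT4) were at 0.17, 0.15 and 0.25, with limma adjusted p-values of 0.581, 0.541 and 0.459.

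The heavy chains could not be tested by the rule above, because too few of their values were placed on arrays 1 to 3. Slc3a2, also known as 4F2hc or CD98, had ratios of 0.09, 0.33 and 0.50 on arrays 4, 5 and 6 and none in the other orientation. Slc3a1, the rBAT chain known from kidney and gut, had 1.87, 1.46 and 2.15 on these arrays and 1.16 on array 3. All 4 values were above 1, in both orientations. When 1 value per orientation was enough, a setting added after these values were seen, Slc3a1 was at 1.496 ± 0.181 (SE, n = 4 arrays), a 2.82-fold difference with a limma adjusted p = 0.00619. There the lone array 3 is assumed to vary like the arrays of the other orientation. With a looser placement (posterior of at least 0.80) array 1 added a further value, 1.75 (posterior 0.94). The ratio was then 1.64 ± 0.15 (limma adjusted p = 0.00157). Array 1 was placed with the help of the other arrays, so its closeness to them is not independent evidence. No ratio of Slc3a1 was fitted with the transporter probes hidden from the placement. With the rows as deposited the ratio of Slc3a1 was 0.11, so the larger ratios rest on the placement of its 1 probe.

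Among the light chains 8 of 9 were tested and none passed, against 3.22% of all genes. At an unadjusted p under 0.05 stood 1, against 18.5% of all genes. Of the 8 ratios 6 were positive, against 47.7% of all genes. Slc7a8, the LAT2 light chain for neutral amino acids, was the member closest to the threshold on the positive side. Its ratios were 0.58, 0.33 and 0.45 on arrays 4, 5 and 6 and 0.39 and 0.40 on arrays 1 and 3. All 5 arrays lay close together and above 0: 0.42 ± 0.11 (SE, n = 5 arrays), with a limma adjusted p = 0.0905. The call depended on how arrays were weighted, since limma's array weights gave 0.40 and an adjusted p = 0.0463. With the transporter probes hidden from the placement, or at a posterior of at least 0.99, too few values of Slc7a8 were placed for a test.

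Slc7a5, the LAT1 light chain that brings leucine into cells, split by dye orientation. It had -0.41, -0.13 and -0.12 on arrays 4, 5 and 6, against 0.18, 0.16 and 0.21 on arrays 1, 2 and 3. The orientations did not overlap, and the fitted ratio was -0.02 ± 0.10 (SE, n = 6 arrays), with an interval from -0.24 to 0.20. Slc7a11, the cystine and glutamate exchanger xCT, had 0.04 and 0.36 on arrays 4 and 6 and 0.10 on each of arrays 1 and 3. All 4 values were positive and small, and the fitted ratio of 0.15 had an interval from -0.16 to 0.47.

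The promoter of Slc7a11 is shown because it carries a pair of amino acid response elements, facing each other, in capitals (chr3:50443614-50443863, minus strand, RefSeq GRCm38.p6, the 250 bases before the start).
Slc7a11: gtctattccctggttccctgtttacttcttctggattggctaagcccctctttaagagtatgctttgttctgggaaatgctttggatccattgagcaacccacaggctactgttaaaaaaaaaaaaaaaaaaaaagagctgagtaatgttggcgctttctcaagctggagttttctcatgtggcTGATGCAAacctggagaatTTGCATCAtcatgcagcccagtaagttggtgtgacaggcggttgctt
TGATGNAA on either strand was found before the start of 3 of the 35 members with a promoter in the table (8.57%), Slc7a11, Slc7a7 and Slc6a21, against 3.91% of 27025 genes. TGACGTCA was found in 0 of the 35, against 1.77% of all genes. Of the 3 genes with a match, Slc7a7, the y+LAT1 light chain, was at 0.12 and Slc6a21 at 0.11, and neither passed limma (adjusted p = 0.79 and 0.755).

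The remaining light chains had no ratio past the threshold. Slc7a9, the partner of Slc3a1, was at -0.10, Slc7a13 at 0.06, Slc7a12 at 0.19 and Slc7a15 at 0.21. Slc7a12 was at 1.11 on array 6 and Slc7a13 at 1.17 on array 4, each far above its other arrays. Slc7a10, the Asc-1 light chain that marks the surface of white fat cells, could not be tested either, with 1 value in channel 1. Its values were -0.25, 0.33 and 0.49 on arrays 4, 5 and 6 and 0.43 on array 1.

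None of the 4 cationic carriers passed, adjusted or not (3.22% and 18.5% of all genes did), and their ratios lay between -0.07 and 0.22. Slc7a1 (CAT1), the main arginine carrier of most cells, was at -0.14, 0.49 and -0.11 on arrays 4, 5 and 6 and at 0.08 and -0.50 on arrays 1 and 3. Its fitted ratio was -0.07 ± 0.15 (SE, n = 5 arrays, limma adjusted p = 0.858). Slc7a2 (CAT2), an arginine carrier known from activated macrophages, was at 0.22, and Slc7a3 (CAT3) and its relative Slc7a4 were at 0.03 and 0.04.

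**Figure D2:**
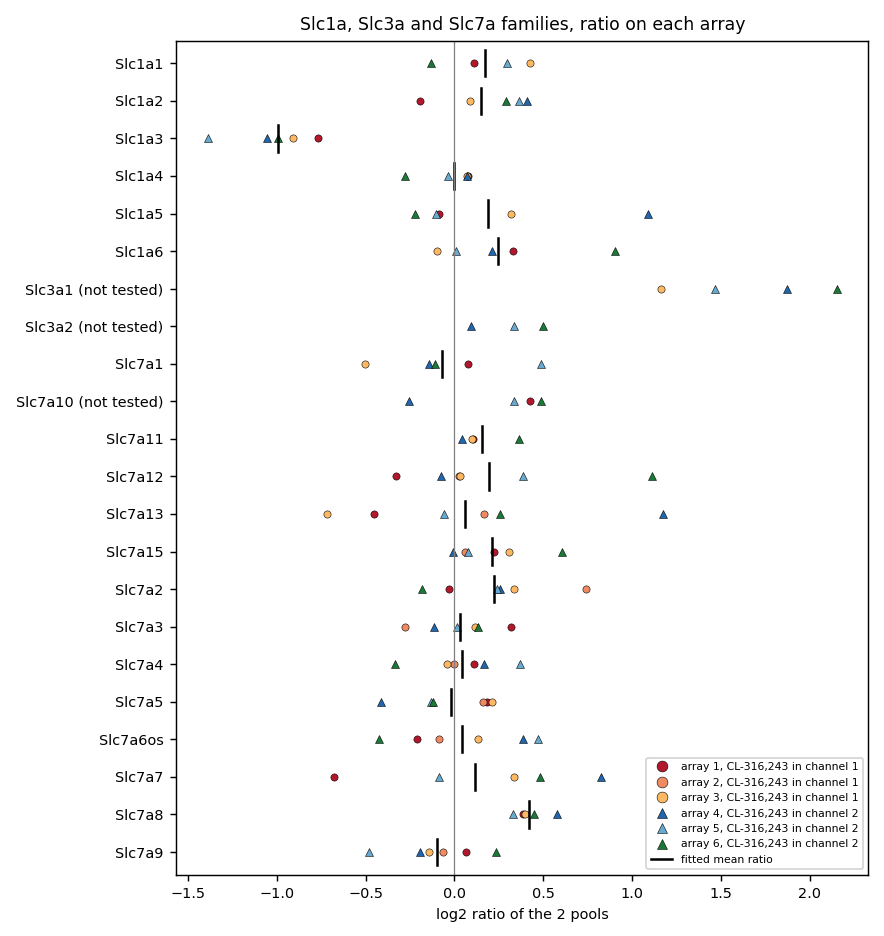
Log2 ratio of the 2 pools on each array (points, coloured by array; circles for CL-316,243 in channel 1, triangles for channel 2) and fitted mean ratio (vertical bars) for the Slc1a, Slc3a and Slc7a genes. Slc1a3 lies below 0 on its 5 arrays, Slc3a1 above 1 on its 4 arrays, and most other genes scatter on both sides of 0.

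None of the 6 Slc38a genes passed limma, adjusted or at an unadjusted p under 0.05 (3.22% and 18.5% of all genes did). Slc38a2 (SNAT2), the system A carrier that rises in amino acid shortage, had -0.28, 0.21 and 0.50 on arrays 4, 5 and 6 and 0.04, 0.02 and 0.05 on arrays 1, 2 and 3. The arrays straddled 0, and the fitted ratio was 0.09 ± 0.12 (SE, n = 6 arrays), with an interval from -0.18 to 0.36. Slc38a1 (SNAT1) was at -0.09, but at 0.05 without array 2, where it was at -0.87. Slc38a9, a lysosomal arginine sensor upstream of mTORC1, was at 0.07, and Slc38a3, a system N carrier, at -0.04.

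The genes with 2 probes, Slc38a4 and Slc38a10, show how far a ratio can hang on the probe. Slc38a4 (SNAT4), a carrier known from liver, averaged 0.33 ± 0.16 (SE, n = 6 arrays, limma adjusted p = 0.304). Its first probe averaged -0.38 and its second 0.63. The second was positive on 6 of 6 arrays, from 0.07 to 1.04. For Slc38a10 the probes averaged 0.61 and -0.11, and the gene was at 0.16.

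The Slc36a and Slc43a families held the largest negative ratios after Slc1a3. Slc43a1 (LAT3), a carrier of branched-chain amino acids, had -1.13, -0.88 and 0.03 on arrays 4, 5 and 6 and -0.64, -1.25 and 0.20 on arrays 1, 2 and 3. In each orientation 2 arrays were well below 0 and the other just above it. The fitted ratio of -0.61 ± 0.20 (SE, n = 6 arrays) missed the threshold (limma adjusted p = 0.14). Without array 3 it was at -0.80, with an adjusted p = 0.036 under the rule of 2 values per orientation and 0.0549 where 1 was enough. It passed with array weights (-0.66, adjusted p = 0.0394). Slc36a1 (PAT1), a proton-coupled carrier of small amino acids on lysosomes and the cell surface, had -0.49, -0.57 and 0.21 on arrays 4, 5 and 6 and -0.85 and -0.34 on arrays 1 and 3. It was at -0.44 ± 0.16 (SE, n = 5 arrays, limma adjusted p = 0.177) and passed with array weights (-0.56, adjusted p = 0.0423). Array 6 was the exception to its negative values. Slc43a3, later described as a purine base carrier, was at 0.22.

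Slc6a is the largest family here. None of its 15 tested genes passed limma, adjusted or at an unadjusted p under 0.05 (3.22% and 18.5% of all genes did). Ratios ran from -0.26 to 0.16. Slc6a8, the creatine carrier, which feeds the creatine cycle of thermogenic fat, had 0.14, 0.17 and 0.28 on arrays 4, 5 and 6 and 0.05, -0.51 and -0.46 on arrays 1, 2 and 3. It was at -0.06 ± 0.11 (SE, n = 6 arrays). Slc6a6, the taurine carrier, had the widest spread: it was at -1.83 on array 2 and between -0.36 and 0.61 elsewhere. Its fitted ratio was -0.26, and 0.10 without array 2. The carriers of noradrenaline (Slc6a2), dopamine (Slc6a3) and serotonin (Slc6a4) were at -0.01, -0.0053 and 0.02. The GABA and betaine group could be tested for Slc6a11 (0.06) and Slc6a13 (0.16), while Slc6a12 had 3 placed values, -0.14, 0.40 and 0.43. Slc6a20a, a proline carrier, was negative on all 5 of its arrays, from -0.48 to -0.10, and at -0.25 ± 0.12 (limma adjusted p = 0.315). Slc6a14 and Slc6a19, amino acid carriers of epithelia, were at 0.0018 and -0.16. Within the family the glycine carriers stood furthest apart between orientations. Slc6a9 (GlyT1) had -0.65, -0.45 and -0.57 on arrays 4, 5 and 6, against 0.34, 0.31 and -0.14 on arrays 1, 2 and 3. Slc6a5 (GlyT2) had -0.22, -0.38 and -0.91 on arrays 4, 5 and 6, against 0.43, 0.66 and 0.16 on arrays 1, 2 and 3. The signs differed by orientation on all arrays but 1, and the fitted ratios were -0.19 and -0.04. Slc6a20b, a close relative of Slc6a20a whose probe may share its sequence, was at -0.05. The opposite strand transcripts were at 0.04 (Slc6a19os and Slc7a6os) and 0.10 (Slc36a1os).

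**Figure D3:**
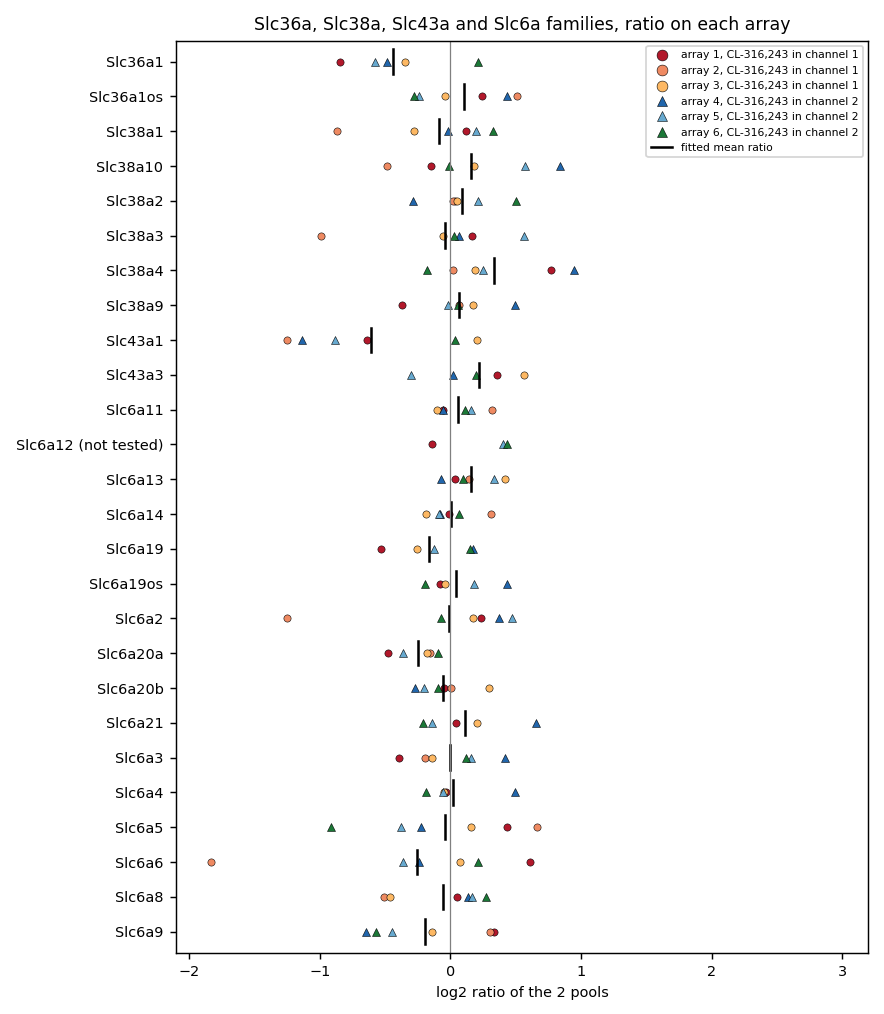
Log2 ratio of the 2 pools on each array (points, coloured by array; circles for CL-316,243 in channel 1, triangles for channel 2) and fitted mean ratio (vertical bars) for the Slc36a, Slc38a, Slc43a and Slc6a genes. Single values of array 2 stand far to the left for Slc6a6 (-1.83), Slc6a2 (-1.25) and Slc38a3 (-0.99), and no fitted ratio passes the threshold.

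The orientations can serve as a check on each gene only if the same pool is on top on all arrays. A dye effect then moves them apart. With the sign of arrays 1 to 3 turned, the fitted ratio and the dye term change places. The dye term thus cannot settle which reading holds. The dye term passed limma for 0 of the 44 members (5 at an unadjusted p under 0.05) and for 1 of the 12870 genes (0.00777%). The share of all genes at an unadjusted p under 0.05 was not counted for this term. Values of 1 sign on every array were found in 4 members, Slc1a3, Slc7a8, Slc6a20a and Slc7a11 (9.09%, against 14% of all genes). In Slc7a5, Slc6a3 and Slc6a5 the orientations had opposite signs on every array (6.82% of members, against 6.95% of all genes).

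**Figure D4:**
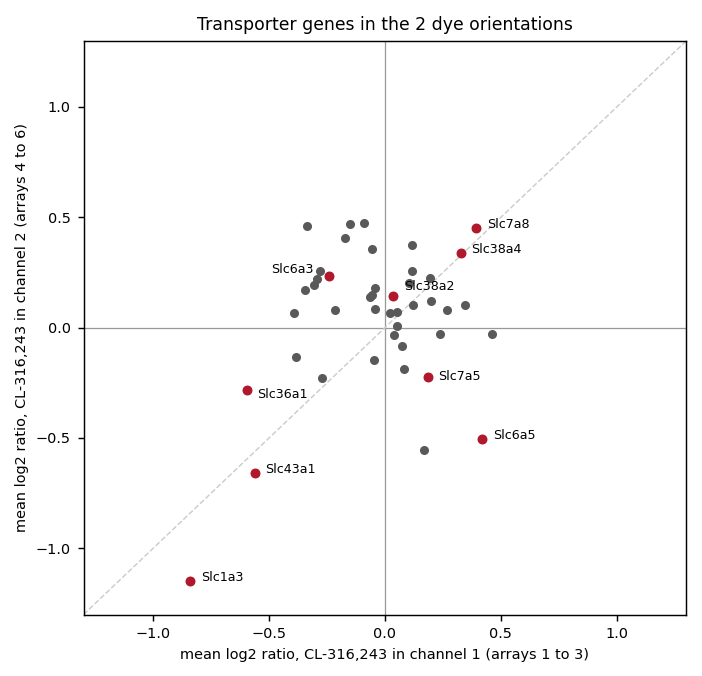
Mean log2 ratio of each tested transporter gene with CL-316,243 in channel 2 (vertical axis) against channel 1 (horizontal axis); the dashed line marks equal values and red points are the named genes. Slc1a3 (-1.15 and -0.84) and Slc43a1 (-0.66 and -0.56) lie at the lower left, while Slc6a5 (-0.51 and 0.42) and Slc7a5 (-0.22 and 0.18) lie below 0 on the vertical axis and above 0 on the horizontal one.

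The transporters were set beside lists of genes that work with them. Of 20 tested genes of the amino acid response 8 had an unadjusted p under 0.05, against 18.5% of all genes. Limma's adjusted p was passed by 3, against 3.22% of all genes, and all were higher: Atf4 (1.69 ± 0.16, adjusted p = 0.000759), its partner Cebpg (1.52 ± 0.17, adjusted p = 0.00436, n = 4 arrays) and the related factor Atf5 (0.87 ± 0.13, adjusted p = 0.0115, n = 5 arrays). The list was made with the ratio of Atf4 already known. Of these 3 only Atf4 was called without array 1, array 3 or array 5. Cebpg, with 2 values per orientation, had too few values to be tested without array 1, 3, 5 or 6. Atf5 had too few without array 1 or array 3, and without array 5 it was tested and did not pass. Without array 1 or array 3, 13 of the 20 genes could be tested. Where 1 value per orientation was enough, Cebpg passed without array 1, and Cebpg and Atf5 without array 3. Among targets of ATF4 outside the transporter families, Chac1 (0.74 ± 0.18), a glutathione-degrading enzyme, and Ddit3 (0.72 ± 0.17), the transcription factor CHOP, were next and missed the threshold (limma adjusted p = 0.0669 and 0.0545). The remaining genes of the list did not pass and had ratios from -0.35 (Eif4ebp1) to 0.47 (Ddit4). Among them Shmt2 was at 0.45 (limma adjusted p = 0.0624), Trib3 at 0.25, Psat1 at -0.01, Asns at -0.18 and Phgdh at -0.20. The list's median was 0.03, against -0.01 for all genes.

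Of 21 tested enzymes of amino acid metabolism 4 had an unadjusted p under 0.05, against 18.5% of all genes. Got1 alone passed limma, against 3.22% of all genes, and was higher at 1.16 ± 0.20 (SE, n = 6 arrays, limma adjusted p = 0.0137). Got1 is the cytosolic transaminase that links glutamate and aspartate, the substrates of the Slc1a3 carrier. It did not pass without array 1 or array 5. Glutamine synthetase, Glul, and glutamate dehydrogenase, Glud1, had the largest negative ratios, -0.55 ± 0.15 and -0.52 ± 0.13, and each missed the threshold (limma adjusted p = 0.095 and 0.061). They were negative on 5 of 5 and 6 of 6 arrays. The list's median was 0.04. None of 18 genes of amino acid sensing and mTORC1 passed limma, against 3.22% of all genes. At an unadjusted p under 0.05 stood 3 of them, against 18.5% of all genes, and their median was -0.07. Rheb, the GTPase that activates mTORC1, had the largest ratio, 0.57 ± 0.15 (limma adjusted p = 0.0813), and passed with array weights; Eif4ebp1, a target of mTORC1 that is on the amino acid response list too, followed at -0.35.

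Of 9 tested amino acid and peptide carriers outside the 7 families none passed, against 3.22% of all genes. At an unadjusted p under 0.05 stood 2, against 18.5% of all genes. Slc17a6 (-0.37) and Slc17a5 (-0.32) were the largest in size. None of 5 partners and regulators passed either (1 at an unadjusted p under 0.05, against 18.5% of all genes). Sgk1, a kinase that keeps carriers at the membrane, was at 0.32 and Cltrn, a partner of Slc6a19, at 0.15. Of 214 other tested genes with an Slc symbol 6 passed (2.8%), 5 higher and 1 lower, a share near that of all genes. The 5 include Slc9a3r1 (0.78), a regulator named after a carrier rather than a carrier.

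**Figure D5:**
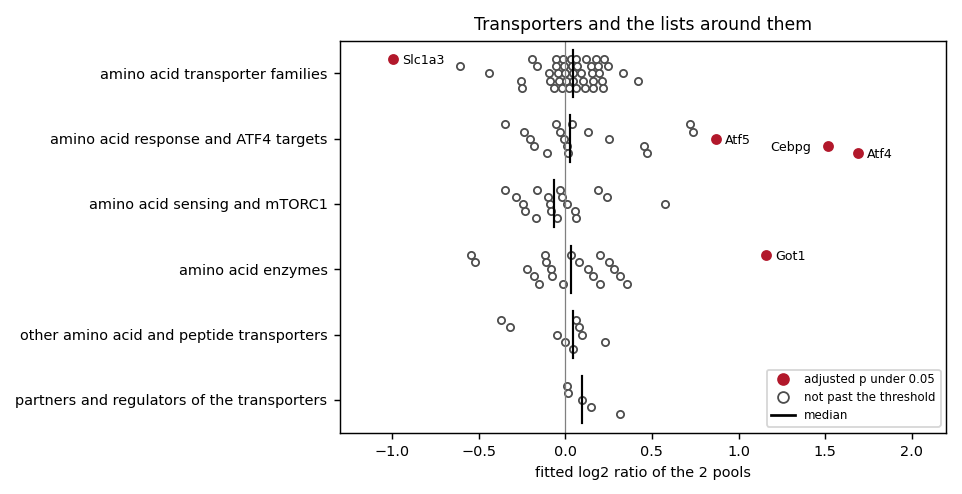
Fitted log2 ratio of each tested gene (points) of the amino acid transporter families and of 5 lists around them, with the median of each (black bars); red points passed limma. Atf4, Cebpg, Atf5 and Got1 lie to the right of all transporters tested, whose median is 0.04.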

How the data were processed

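Per the labels' protocols, equal amounts of RNA were pooled, labelled with fluorescein or biotin, developed by tyramide signal amplification and scanned on a ScanArray 5000; QuantArray 3.0 gave the intensities. The deposited values are log ratios, taken here as log2, to which the authors applied a uniform scale factor and LOWESS, per the labels. The sources used here give neither numerator, log base nor spot filter. Column medians lay between -0.02 and 0.01. Each column had 1 to 724 empty rows, all at its end. A hidden Markov model that allows for lost spots placed each column on probe numbers (normal scores clipped at 3, 3 rounds, posterior of at least 0.95), starting from arrays 5 and 6 jointly. It was tested on simulated data, which does not show how well it places these files. Afterwards Spearman's rho over genes averaged 0.31 within and 0.12 across orientations.

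Names came from the platform annotation (14711 probes with 1 symbol; the 4489 others, 6 of them with several symbols, were not named); no symbol of a member needed updating. Over 969 pairs of probes of the same gene, mean ratios clipped at 2 correlated at 0.09, so a ratio that rests on 1 probe is weakly tied to its gene name. A gene's value is the mean of its probes. All 12870 genes with 2 values per orientation were fitted with limma 3.58.1 in R 4.3.3 (lmFit, eBayes, dye orientation as covariate) and adjusted by Benjamini-Hochberg at 0.05. The number of arrays limits the precision. Each slide has its own lot, so lots could not be tested as batches. Members and lists were chosen with earlier results of these data known. Singled out were members past limma or the size rule, the 5 largest ratios in each direction and the classical targets of the amino acid response, and in each list the genes past limma and the 2 largest others; the remaining members stand by family. Alternatives covered placement, arrays left out, signs, dye term, probes, scale, weights and values needed; asking for 1 value per orientation was chosen after seeing the data. Promoters came from RefSeq (GRCm38.p6), where 35 of the 48 members had an entry.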

Additional observations from a re-analysis of the deposited data

Results flagged for a closer look

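In 3 transporter genes the dye orientations had opposite signs on every array. The difference between the mean with CL-316,243 in channel 2 and that in channel 1 was -0.92 for the glycine carrier Slc6a5, -0.41 for Slc7a5 and 0.48 for the dopamine carrier Slc6a3. Limma's test of this difference missed the threshold in each (adjusted p = 0.388, 0.493 and 0.457). With 895 of 12870 genes showing such a split (6.95%), the share among transporters was near that of the array.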

How the results depend on the processing

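The spread between mice was not measured, and every call of a transporter or list gene was lost with the rows as deposited. No paired analysis was possible because the dye orientations share no replicate numbers; every ratio already pairs both pools within an array. Slc1a3 kept its negative ratio under all 19 alternatives that measured it and its call under 16. It was not called with the rows as deposited (-0.13), the sign turned on arrays 1 to 3 (-0.15) or arrays 1 to 3 alone (-0.84); adjusted p-values ran from 0.00119 to 0.947. Limma called 1 transporter in the reported fit. It called 0 with the rows as deposited, with the sign turned, with arrays 1 to 3 alone and among genes with values on all 6 arrays, where Slc1a3 was not tested. It called 2 (Slc1a3 and Slc3a1) at a posterior of 0.80, on arrays 4 to 6 alone, and with 1 value per orientation (with and without array 1), and 4 with array weights. Leaving out 1 array gave 0 to 1; the 0 came without array 1, and the call without array 3 was Slc43a1, since Slc1a3 had too few values in both. The size rule gave 0 with the rows as deposited, the sign turned, all 6 arrays required or a 2-fold threshold, 2 in the same 4 settings as limma and on arrays 1 to 3 alone, and 0 to 1 without 1 array. The dye term was called for 0 members, and for 1 with the sign turned. Shares of all genes called were not set beside these counts or those of the lists below. Array weights also raised the calls of the amino acid response, enzyme and mTORC1 lists. The 4 calls they gave here therefore cannot be read as particular to the transporters.

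The amino acid response list had 3 calls. It had 0 with the rows as deposited and with the sign turned, 1 on arrays 1 to 3 alone, 7 with array weights, and 1 to 3 without 1 array (2 to 4 where 1 value per orientation was enough). The enzyme list had 1 call, 0 with the rows as deposited, the sign turned or either orientation alone, 2 with all 6 arrays required or with array weights, and 0 to 1 without 1 array. The mTORC1 list had 1 with array weights.

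Changes of sign under the alternatives were followed only for the members singled out, so the list below is not complete. Slc6a8, for example, was not followed: its fitted ratio was -0.06 and its mean on arrays 4 to 6 was 0.19. Among the members followed, ratios that changed sign belonged to genes that limma did not call. With the rows as deposited these were Slc1a6 (-0.0053), Slc38a2 (-0.15), Slc38a4 (-0.065), Slc43a1 (0.16), Slc43a3 (-0.0061) and Slc7a2 (-0.039). With the sign turned they were Slc36a1 (0.16), Slc38a1 (0.26), Slc43a3 (-0.25), Slc6a20a (0.0205), Slc6a6 (0.13), Slc7a1 (0.15) and Slc7a2 (-0.12). On arrays 4 to 6 alone they were Slc38a1 (0.17), Slc43a3 (-0.031) and Slc7a1 (0.078), and on arrays 1 to 3 alone Slc7a5 (0.18). Array weights turned Slc38a1 (0.0215) and Slc7a1 (0.067), a posterior of 0.99 turned Slc38a1 (0.045), and the first probe alone turned Slc38a4 (-0.38). Leaving out 1 array moved Slc1a5 between -0.022 (without array 4) and 0.31, Slc7a5 between -0.044 and 0.029 (without array 4), Slc38a1 between -0.20 and 0.045 (without array 2) and Slc6a6 between -0.50 and 0.10 (without array 2). With 1 value per orientation enough, Slc7a1 was at 0.077 without array 3. The cause was not tested.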
